A study of Mus musculus with 16 samples.

Results

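The genes that move cargo between the nucleus and the cytoplasm were described across mouse left ventricles with and without a mutation of the splicing factor RBM20 and with and without extra transportin 3. Members were taken by symbol: numbered nucleoporins (Nup), importins (Ipo, Kpna, Kpnb1), exportins (Xpo, Xpot, Cse1l) and the genes of the Ran cycle (Ran, Rangap1, Ranbp1, Rcc1, Nutf2), with Ranbp2. Transportin genes and pseudogene symbols were left out. This gave 48 of the 56953 genes in the count table, by a rule that reads symbols only. Of these, 46 passed the filter on low counts and were tested. Kpna7 and Nup62cl did not pass, with at most 4 and 3 counts in any library. Nupl1 and Nupl2 carry their older symbols here and so fall outside the rule.

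Traffic through the nuclear envelope runs through nuclear pores, large channels built from nucleoporins. Importin alphas bind the classical nuclear localisation signal of a cargo and pair with importin beta (Kpnb1), while the other importin betas bind their cargoes directly. Exportins carry RNA and protein out, and the small GTPase Ran, charged by Rcc1 in the nucleus and discharged by Rangap1 at the cytoplasmic side, gives both routes their direction. Transportin 3, the product of Tnpo3, is an import receptor of the importin beta family for proteins rich in serine and arginine.

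All mice were Bl6J, of both sexes. Each was injected through the tail vein with AAV9, at 1e12 viral genomes, when 4 weeks old. Left ventricles were taken 12 weeks later, at 16 weeks. The 4 groups, of 4 mice each, were WT Ctr and WT Tnpo3 (wild type) and P635L Ctr and P635L Tnpo3 (homozygous for RBM20 P635L). Tnpo3 mice received the Tnpo3 cDNA. Ctr mice received a construct with the CAG promoter, Cre recombinase (iCre) and green fluorescent protein (eGFP) per the design text, so the virus groups differ in Cre and eGFP as well as in Tnpo3. The labels name no promoter for the Tnpo3 construct.

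Libraries held 28493249 to 85922669 counts. Tnpo3 stood at 41.6 to 49.4 CPM (counts scaled to library size with TMM factors) in the 8 Ctr libraries and at 231 to 723 CPM in the 8 Tnpo3 libraries. One gene, ENSMUSG00000119584, held over 10% of the counts in 3 libraries (WT Ctr 2, WT Ctr 4 and WT Tnpo3 4). Xist exceeded the Y-linked genes in 3 libraries (WT Ctr 4, WT Tnpo3 2 and WT Tnpo3 4) and in no P635L library, so genotype and sex are not balanced. Cardiomyocyte markers (Myh6, Actn2, Tnnt2, Tnni3 and Ryr2) were high in every library, at 32842 to 56870 CPM in sum. In bulk tissue, fewer cells of a type and less RNA per cell cannot be told apart.

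Levels were first compared between members per length of gene, as FPKM (counts scaled by listed gene length and by TMM-scaled library size). The listed length is that of the gene and not of the transcripts present. It was 1666 bases for Ranbp1 and 19005 for Xpo7, so the order of members depends on it. The median member stood at 4.24 FPKM over the 16 libraries. Ran was the most abundant, at a mean of 45.5 FPKM (34.2 to 56.1). Next came Ipo5, a karyopherin beta for ribosomal proteins and histones, at 33.8 FPKM (25.0 to 43.3). Ipo13, which carries cargo in both directions, stood at 22.5 FPKM (17.0 to 28.2). Kpnb1 followed at 15.9 FPKM (13.3 to 18.5). The ranges of Ran and Ipo5 overlap over the libraries, as do those of Ipo5 and Ipo13 and those of Ipo13 and Kpnb1. In all, 7 members had means over 10 FPKM and 11 under 2 FPKM.

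The 8 highest members were all carriers or Ran-cycle genes, and the 4 lowest tested members were all nucleoporins. No nucleoporin had a mean over 10 FPKM. The highest means were Nup62 of the central channel, at 9.26 FPKM, and Nup85 of the outer ring, at 8.78 FPKM. The highest in the other pore classes were Nup88 of the cytoplasmic face at 6.24 FPKM, Nup50 of the nuclear basket at 4.12 FPKM, Nup93 of the inner ring at 4.03 FPKM and the membrane nucleoporin Nup210 at 0.630 FPKM. Ranbp2, the SUMO ligase on the cytoplasmic filaments, stood at 4.37 FPKM. By CPM, which takes no account of length, Ranbp2 and Nup88 were the highest nucleoporins, at means of 51.2 and 50.8 CPM. Nup210l, a relative of Nup210, was the lowest tested member, at 0.177 FPKM.

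**Figure D1:**
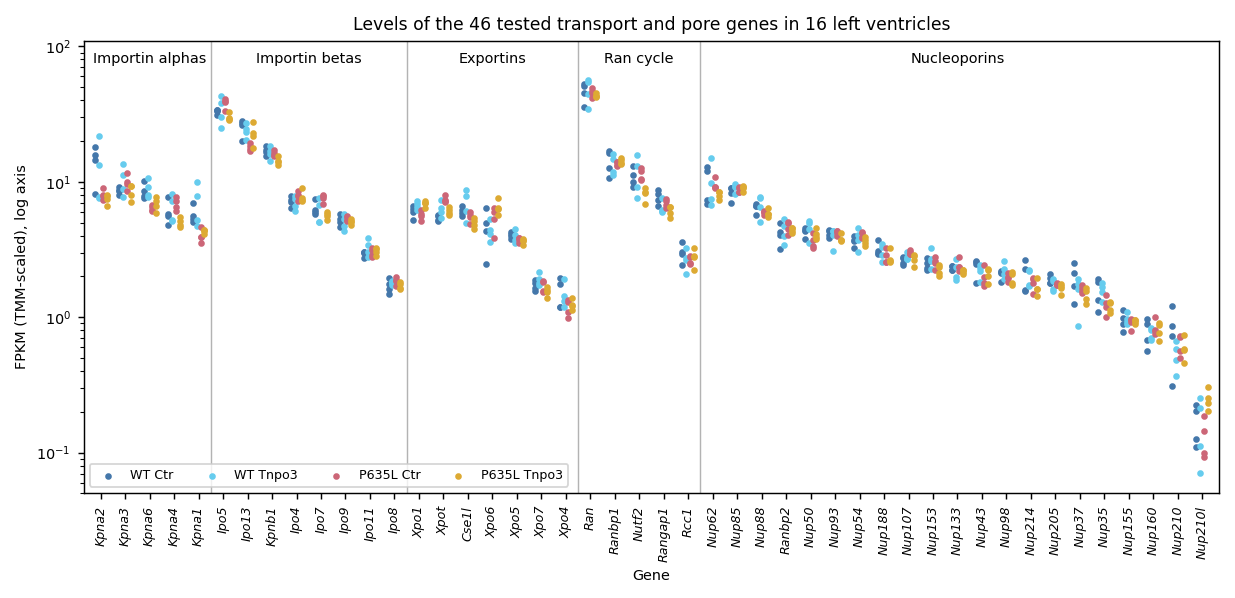
Level of each tested gene in each of the 16 libraries, as TMM-scaled FPKM on a log axis, grouped by role and ordered by mean within a role, with 1 point per library coloured by group. Ran, Ipo5, Ipo13 and Kpnb1 lead, and Nup210l is the lowest at 0.177 FPKM.

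The levels of most members were steady. The highest library was less than 2 times the lowest in 38 of 46 members, with a median ratio of 1.6. The ratio was widest for Nup210l (4.3), Nup210 (3.89), Kpna2 (3.27), Xpo6 (3.08), Nup37 (2.91) and Kpna1 (2.81), and smallest for Xpo5 (1.31). The spread within a group was not the same for each group. The median coefficient of variation over members was 11.9% for WT Ctr and 15.2% for WT Tnpo3. It was lower in the mutants, at 8.0% for P635L Ctr and 7.95% for P635L Tnpo3. The WT groups held all 3 libraries rich in ENSMUSG00000119584 and all 3 with high Xist, and the part of either in this spread was not tested.

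Promoters of the members were GC-rich. Of the 48 members, 38 had an entry in the RefSeq promoter table (GRCm38.p6), with 44 windows of 250 bases before a transcription start. Median GC content was 64.4% in these windows and 52.4% in the 32851 windows of all genes. A GC box (GGGCGG, either strand) stood in 65.9% of member windows and 32.7% of all windows. An E-box (CACGTG) stood in 15.9% and 6.02%, an ETS site (CCGGAAG) in 13.6% and 6.91%, and a CCAAT box in 47.7% and 33.8%. A motif rich in G and C is met more often in windows rich in G and C, so these shares are a description. The windows of Xpot and Ipo13 are shown, since these are the called members with an entry; capitals mark the GC box in both, read here on its other strand as CCGCCC, and the E-box in Xpot. The Xpot window is chr10:121626333-121626582 and the Ipo13 window is chr4:117915000-117915249, both on the minus strand of GRCm38.p6 and printed 5′ to 3′.
Xpot: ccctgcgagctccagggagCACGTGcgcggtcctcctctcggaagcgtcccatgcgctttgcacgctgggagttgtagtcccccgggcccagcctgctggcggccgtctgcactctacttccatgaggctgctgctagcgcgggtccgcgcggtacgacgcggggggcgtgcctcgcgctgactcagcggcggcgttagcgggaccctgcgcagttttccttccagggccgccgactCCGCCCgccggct
Ipo13: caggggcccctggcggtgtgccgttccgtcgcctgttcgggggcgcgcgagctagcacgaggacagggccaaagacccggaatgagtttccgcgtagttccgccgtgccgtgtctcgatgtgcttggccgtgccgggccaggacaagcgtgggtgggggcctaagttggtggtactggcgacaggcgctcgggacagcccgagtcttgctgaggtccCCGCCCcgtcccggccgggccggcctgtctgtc

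The mutation was first compared under the control virus (P635L Ctr against WT Ctr). Of 46 members, 3 were called changed: the tRNA exportin gene Xpot was higher, and Ipo13 and the importin alpha gene Kpna6 were lower. This is 6.52% of the members, beside 14.2% of the 18662 genes tested (edgeR's quasi-likelihood test, adjusted p under 0.05). Another 3 members, Kpna1, Kpna2 and Xpo4, had an unadjusted p under 0.05. With the called members these are 6 of 46, beside 28.1% of all genes tested. The median log2 fold change was -0.06 over members and -0.05 over all genes tested, and 44 of 46 members lay within 0.5 of 0 on the log2 scale.

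Xpot (chr10:121423285-121462237, GRCm39, minus strand) encodes exportin-t, which takes mature tRNAs out of the nucleus. Its level was 31.7, 33.8, 34.5 and 31.1 CPM in WT Ctr and 43.7, 44.3, 42.9 and 48.1 CPM in P635L Ctr. All 4 mutant libraries lay above all 4 wild-type libraries. The log2 fold change was 0.45 (SE 0.0997, edgeR adjusted p = 0.00492), a 1.37-fold difference. The call held under each of 16 alternative settings, with adjusted p from 8e-05 to 0.0208.

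Ipo13 (chr4:117751683-117772196, minus strand) moved the other way. It stood at 84.6, 113.7, 118.6 and 111.2 CPM in WT Ctr and at 73.4, 71.5, 81.8 and 77.6 CPM in P635L Ctr. The groups did not overlap, with WT Ctr 1 nearest to the mutants. The log2 fold change was -0.49 (SE 0.137, edgeR adjusted p = 0.0206). The call was lost in 5 of 16 alternatives, those without WT Ctr 2, WT Ctr 3, P635L Ctr 1, P635L Ctr 2 or the 3 libraries rich in ENSMUSG00000119584, with adjusted p up to 0.122.

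Kpna6 (chr4:129537773-129566560, minus strand) encodes importin alpha 7. It stood at 50.9, 67.9, 52.5 and 57.0 CPM in WT Ctr and at 41.1, 41.4, 43.8 and 45.1 CPM in P635L Ctr. Each mutant library lay below each wild-type library. The log2 fold change was -0.41 (SE 0.122, edgeR adjusted p = 0.029). It lost its call in 7 of 16 alternatives: with no filter on low counts, and without WT Ctr 2, P635L Ctr 1, P635L Ctr 2, P635L Ctr 3, the high-Xist libraries or those rich in ENSMUSG00000119584, with adjusted p up to 0.263.

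The other importin alphas split. Kpna1, of the same subfamily as Kpna6, did not overlap either, with 47.4, 59.4, 42.9 and 44.9 CPM in WT Ctr and 29.9, 33.2, 33.0 and 39.5 CPM in P635L Ctr, but its edgeR adjusted p was 0.0644 (log2 fold change -0.52, SE 0.182). Kpna2, the importin alpha best known from dividing cells, had 45.0, 52.3, 23.3 and 41.5 CPM in WT Ctr and 22.9, 25.9, 21.0 and 22.5 CPM in P635L Ctr. WT Ctr 3 was as low as the mutants, and the log2 fold change of -0.81 (SE 0.287) had an edgeR adjusted p of 0.0726. Without WT Ctr 3 it was -1.0 with an edgeR adjusted p of 0.0215, and leaving out any other single library gave no call. It was also called with DESeq2 (adjusted p = 0.0263) and in an edgeR fit of these groups alone (0.0271), and adjusted p reached 0.347 without the libraries rich in ENSMUSG00000119584. Kpna3 and Kpna4 both had log2 fold changes of 0.20, with edgeR adjusted p of 0.4 and 0.426.

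No gene of the pore or of the Ran cycle was called. The 21 tested nucleoporins, Ranbp2 included, had log2 fold changes from -0.32 to 0.19, with standard errors of 0.0973 to 0.382. The extremes were Nup210l and the outer-ring gene Nup107, which was 9.73, 9.28, 10.8 and 10.6 CPM in WT Ctr and 12.1, 11.3, 11.2 and 11.6 CPM in P635L Ctr with no overlap (edgeR adjusted p = 0.249). Across the 5 Ran-cycle genes the log2 fold changes lay between -0.18 and 0.06. Ran itself stood at 134.0, 138.8, 119.8 and 94.9 CPM in WT Ctr and 109.0, 123.4, 118.7 and 129.4 CPM in P635L Ctr (log2 fold change -0.02, SE 0.144). Its mutant libraries all lay inside the wild-type range. Kpnb1 differed by -0.06 (SE 0.0997), the main nuclear exportin gene Xpo1 by -0.10 (SE 0.0983), and Cse1l, which returns importin alphas to the cytoplasm, by -0.14 (SE 0.139), all on the log2 scale. Groups did not overlap for 5 members, 2 higher and 3 lower, beside 19.1% of all genes tested.

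Cell type markers moved in the same comparison. All 5 fibroblast markers were called higher in P635L Ctr, with summed levels of 625 to 907 CPM in WT Ctr and 1067 to 1566 CPM in P635L Ctr. Of 5 cardiomyocyte markers, 2 were called lower (Myh6 and Tnni3), with sums of 48751 to 56870 CPM and 34587 to 38356 CPM. One of 5 macrophage markers was called lower, and their sums were 183 to 593 CPM and 151 to 211 CPM. None of 6 dividing-cell markers was called by edgeR, and their sums were 10.6 to 39.7 CPM and 8.42 to 18.8 CPM. The upper ends of the macrophage and dividing-cell sums in WT Ctr are both WT Ctr 1. In that library C1qa stood at 263 CPM, beside 128, 86.3 and 76.2 CPM in the rest of WT Ctr. The lymphocyte gene Cd3e stood at 8.07 CPM there, beside 0.0, 0.493 and 0.406 CPM. The part of cell makeup in the differences of Xpot, Ipo13 and Kpna6 was not tested.

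**Figure D2:**
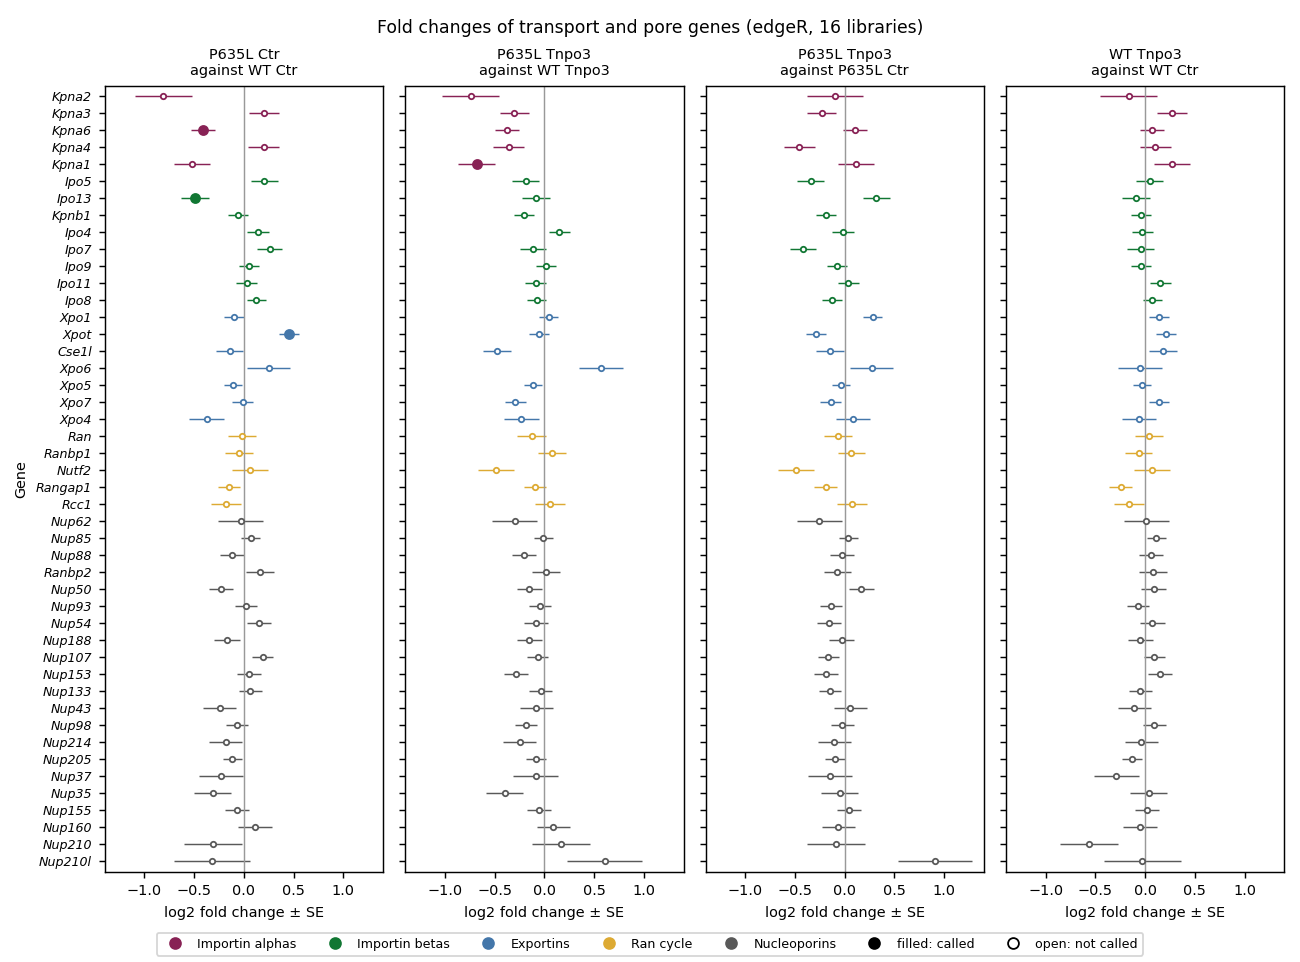
Log2 fold change (x axis, bars ± SE) of each tested gene (y axis, coloured by role) in 4 comparisons, with filled points for genes called by edgeR at an adjusted p under 0.05. Called genes are Xpot, Ipo13 and Kpna6 in the first panel and Kpna1 in the second, and edgeR calls none in the panels of the virus.

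Under the Tnpo3 virus (P635L Tnpo3 against WT Tnpo3), which shares no library with the first comparison, 1 of 46 members was called. This is 2.17%, beside 3.72% of all genes tested. The member was Kpna1 (chr16:35799120-35857501, plus strand), which encodes importin alpha 5. It stood at 84.0, 66.8, 44.1 and 40.3 CPM in WT Tnpo3 and at 36.8, 37.6, 37.1 and 35.2 CPM in P635L Tnpo3. The mutant libraries lay close together, and all lay below the wild-type libraries, of which 1 and 2 stood well above 3 and 4. The log2 fold change was -0.68 (SE 0.182, edgeR adjusted p = 0.0444). The call was lost in 8 of 16 alternatives: with a replicate block, in a fit of these groups alone, and without WT Tnpo3 1, WT Tnpo3 2 or any single library of P635L Tnpo3, with adjusted p up to 0.172. Kpna1 overlaps the antisense gene Gm15564, and whether counting used strand is not given in the sources used here.

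All 5 importin alphas had negative estimates in this comparison, from -0.74 for Kpna2 to -0.30 for Kpna3. By edgeR only Kpna1 passed the test, and DESeq2 also called Kpna6 (adjusted p = 0.043). Kpna6 again did not overlap, at 71.9, 61.4, 51.8 and 54.0 CPM in WT Tnpo3 and 51.6, 48.2, 44.8 and 39.9 CPM in P635L Tnpo3 (log2 fold change -0.37, SE 0.122, edgeR adjusted p = 0.0937). Its margin was narrow, 51.8 against 51.6 CPM. Cse1l stood at 45.8, 41.1, 32.2 and 26.3 CPM in WT Tnpo3 and at 27.1, 25.3, 28.7 and 23.5 CPM in P635L Tnpo3, so the groups overlapped (log2 fold change -0.48, SE 0.139, edgeR adjusted p = 0.0626). It was called with DESeq2 (adjusted p = 0.022) and by edgeR without WT Tnpo3 3 (0.0428), WT Tnpo3 4 (0.00808), the libraries rich in ENSMUSG00000119584 (0.00753) or those with high Xist (0.0409), and under none of the other 11 alternatives. Xpot, the clearest call under the control virus, had a log2 fold change of -0.05 (SE 0.0994), and Ipo13 had -0.08 (SE 0.137).

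Pore genes again gave no call, with 21 log2 fold changes from -0.40 (Nup35 of the inner ring) to 0.61 (Nup210l). Over all members the median was -0.09, beside -0.02 for all genes tested. Estimates were positive for 10 of 46 members and for 47.9% of all genes. Groups did not overlap for 5 members, 1 higher and 4 lower, beside 11.5% of all genes. Of the markers, Cdh5 of endothelium and Acta2 of smooth muscle were called lower and no fibroblast marker was called by edgeR. Between the 2 viruses, 27 of 46 members had the same sign of the mutation's effect (58.7%), beside 64.5% of all genes tested.

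The Tnpo3 virus was compared with the control virus within each genotype. In wild-type hearts (WT Tnpo3 against WT Ctr) no member was called by edgeR, and DESeq2 called none. At an unadjusted p under 0.05 were 2 members, beside 3.2% of all genes tested. Of all genes tested 0.00536% were called, which is 1 gene, Tnpo3. Rangap1 had 39.2, 42.5, 32.0 and 35.8 CPM with the control virus and 29.0, 37.2, 29.6 and 30.2 CPM with the Tnpo3 virus (log2 fold change -0.25, SE 0.113, edgeR adjusted p = 1.0). Its groups overlapped through WT Tnpo3 2. The other extremes were Nup210 (-0.56, SE 0.293), Kpna3 (0.27, SE 0.15) and Kpna1 (0.27, SE 0.181), all with overlapping groups. In this genotype no member had groups that did not overlap, beside 1.09% of all genes.

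In mutant hearts (P635L Tnpo3 against P635L Ctr) no member was called by edgeR either, beside 3.88% of all genes tested. DESeq2 called 2, but its share of all genes is not given, so that count has no background beside it. At an unadjusted p under 0.05 were 8 members, beside 18.4% of all genes tested. The groups did not overlap for 10 of 46 members, 2 higher and 8 lower, a share near the 20.4% of all genes. Lower with Tnpo3 were Ipo5, Ipo7, Kpna4, Kpnb1, Nup62, Nup107, Nutf2 and Xpot, and higher were Xpo1 and Nup210l. When the 8 mutant libraries were fitted alone, leaving out the more variable WT libraries, 7 members were called: Ipo5, Ipo7, Kpna4, Nutf2 and Xpot lower, and Xpo1 and Nup210l higher. This fit called 15.9% of the 17930 genes it tested, so the share of members called was near that of all genes.

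Ipo7, an importin beta for ribosomal proteins among other cargoes, had 76.7, 89.0, 87.1 and 84.7 CPM in P635L Ctr and 64.7, 62.6, 58.3 and 67.2 CPM in P635L Tnpo3. Its log2 fold change was -0.42 (SE 0.13), with an edgeR adjusted p of 0.083 over 16 libraries and 0.0031 over the 8 mutant libraries. Kpna4, which encodes importin alpha 3, had 54.7, 58.1, 64.2 and 68.4 CPM and then 45.9, 49.0, 42.5 and 41.3 CPM. Its log2 fold change of -0.46 (SE 0.155) had edgeR adjusted p of 0.113 and 0.00415 in the same fits. In both genes the Tnpo3 libraries lay below the control libraries.

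Nutf2, whose product NTF2 returns Ran to the nucleus, had 21.4, 21.1, 24.4 and 25.7 CPM in P635L Ctr and 17.1, 16.8, 18.2 and 13.9 CPM in P635L Tnpo3 (log2 fold change -0.49, SE 0.18). Its edgeR adjusted p was 0.148, or 0.00622 in the 8 libraries alone. Xpot had 34.6, 35.6, 37.1 and 39.0 CPM in P635L Tnpo3, all below the 42.9 to 48.1 CPM of P635L Ctr and all above 31.1 to 34.5 CPM of WT Ctr (log2 fold change between mutant groups -0.29, SE 0.0992, edgeR adjusted p = 0.115). Xpo1, the receptor of leucine-rich export signals, differed in the other direction, with 40.2, 44.3, 41.2 and 36.6 CPM in P635L Ctr and 49.7, 49.8, 45.9 and 51.7 CPM in P635L Tnpo3 (log2 fold change 0.28, SE 0.0981, edgeR adjusted p = 0.124). Ipo13 had 96.3, 92.2, 115.6 and 74.7 CPM in P635L Tnpo3, where replicate 4 fell among the P635L Ctr libraries (log2 fold change 0.32, SE 0.137, edgeR adjusted p = 0.221).

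**Figure D3:**
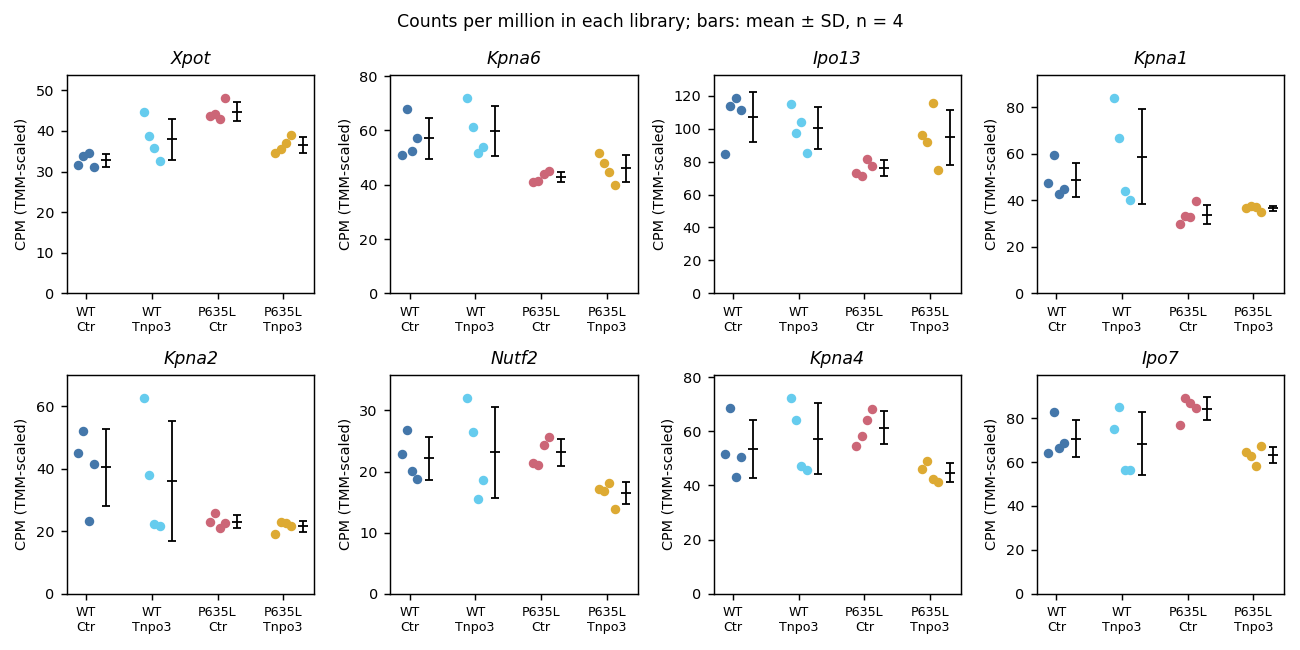
TMM-scaled CPM (y axis, from 0) of 8 genes in each library, by group, with the mean and SD of 4 libraries beside the points. Xpot in P635L Ctr (42.9 to 48.1 CPM) lies above WT Ctr and P635L Tnpo3, and Kpna2 is spread more widely in the WT groups than in the mutants.

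The fibroblast markers moved with the virus in mutants as well. Their sum was 705 to 960 CPM with the Tnpo3 virus, below the P635L Ctr range given above, and 4 of 5 were called lower. The macrophage markers lay the other way, with sums of 233 to 401 CPM with the Tnpo3 virus and 151 to 211 CPM with the control virus and no overlap. None of those 5 was called by edgeR, and their log2 fold changes ran from 0.44 to 0.88. Cardiomyocyte markers gave no call by edgeR, at 34587 to 38356 CPM and 35158 to 44147 CPM. The part of these shifts in the values of Ipo7, Kpna4, Nutf2 and Xpot was not tested.

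Whether the effect of the virus differed between genotypes was asked by the interaction of virus and genotype. No member was called by edgeR, beside 0.504% of all genes. At an unadjusted p under 0.05 were 5 members, beside 12.4% of all genes. The smallest adjusted p was that of Xpot (log2 interaction -0.50, SE 0.141, edgeR adjusted p = 0.133), and DESeq2 called it at an adjusted p of 0.0183. Next were Kpna4 (-0.56, SE 0.22), Kpna3 (-0.50, SE 0.212), Nutf2 (-0.55, SE 0.255) and Ipo13 (0.41, SE 0.193). Of 46 members, 22 had the same sign of the virus effect in both genotypes (47.8%), beside 45.6% of all genes.

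Treated mutants were also set against control wild type (P635L Tnpo3 against WT Ctr), a comparison that shares libraries with others above. No member was called by edgeR, beside 3.07% of all genes. DESeq2 called 1, again with no share of all genes to set beside that count. At an unadjusted p under 0.05 were 8 members, beside 18.3% of all genes. The median was -0.14 over members and -0.05 over all genes. Kpna2 had 19.1, 22.9, 22.7 and 21.5 CPM in P635L Tnpo3, all under the lowest WT Ctr library at 23.3 CPM (log2 fold change -0.91, SE 0.287). Its edgeR adjusted p was 0.105. It was not called in 14 of 16 alternatives, with adjusted p up to 0.418, and was called with DESeq2 (0.0285) and without WT Ctr 3 (0.0366). Kpnb1 was -0.25 (SE 0.0998, edgeR adjusted p = 0.193), and Xpo6, which exports actin with profilin, was 0.52 (SE 0.219, edgeR adjusted p = 0.216). Xpot lay above WT Ctr in all 4 libraries by a small margin, 34.6 against 34.5 CPM. Groups did not overlap for 8 members, 1 higher and 7 lower, beside 11.7% of all genes.

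The importin alphas were also viewed as a pool, a grouping chosen after their values were seen and given without a test. Their summed level was 42.9 ± 7.15 FPKM in WT Ctr, 45.2 ± 14.4 in WT Tnpo3, 35.1 ± 2.5 in P635L Ctr and 32.1 ± 1.59 in P635L Tnpo3 (mean ± SD, n = 4). Kpna3 and Kpna4 form 1 subfamily, Kpna1 and Kpna6 another, and Kpna2 stands alone. The size of each share depends on the listed gene lengths, such as 8940 bases for Kpna4 and 2873 for Kpna2. The share of Kpna3 and Kpna4 was 34.3% ± 3.2 in WT Ctr and 37.8% ± 2.91 in WT Tnpo3. In the mutants it was 47.6% ± 2.31 with the control virus and 41.8% ± 2.5 with Tnpo3. The P635L Ctr libraries (45.5% to 50.0%) lay above those of each other group, the nearest being P635L Tnpo3 at up to 44.1%. The summed level of Kpna3 and Kpna4 itself was 14.7 to 19.2 FPKM in P635L Ctr, which overlaps the 13.3 to 16.4 FPKM of WT Ctr and lies within the 12.9 to 21.6 FPKM of WT Tnpo3. The share of Kpna2 was 32.3% ± 5.81, 26.5% ± 5.46, 22.9% ± 2.61 and 23.4% ± 1.99 in the same order. That of Kpna1 and Kpna6 was 33.4% ± 3.09, 35.7% ± 2.75, 29.5% ± 0.548 and 34.8% ± 2.48.

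**Figure D4:**
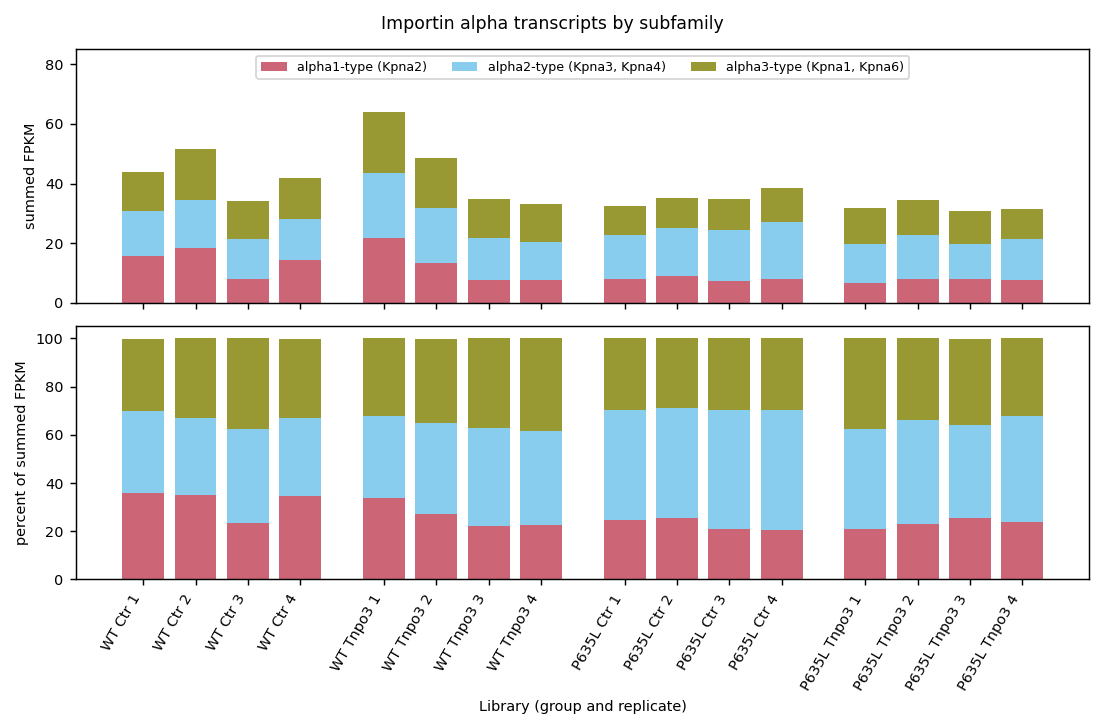
Summed FPKM of the importin alpha genes (upper bars) and the percent held by each subfamily (lower bars) in each library. The share of Kpna3 and Kpna4 is 45.5% to 50.0% in P635L Ctr and at most 44.1% elsewhere.

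Outside the rule, 39 further genes of the pathway were read: 9 other pore proteins, 17 other transport factors and 13 genes of the nuclear envelope. By edgeR 1 was called in 1 comparison, P635L Tnpo3 against WT Tnpo3, beside 3.72% of all genes tested. None of the 39 was called in P635L Ctr against WT Ctr, beside 14.2% of all genes tested. Tnpo1, the transportin for proline-tyrosine signals, was lower in P635L Tnpo3 than in WT Tnpo3 (log2 fold change -0.40, SE 0.108, edgeR adjusted p = 0.0482).

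Splicing of the members was read from the authors' rMATS tables, which compare each group with WT Ctr. Inclusion is the share of transcripts that hold the segment, from 0 to 1. Events were called at an FDR under 0.05, a difference of 0.1 or more, and junction reads averaging 10 or more over the libraries of each group. In P635L Ctr, 3 of 118 member events were called, beside 2.52% of all 34690 events. In P635L Tnpo3 there were 3 of 119, beside 2.11% of 34518, and in WT Tnpo3 there were 0 of 121, beside 0.941% of 31786. The called events were in Xpo6, Ipo11 and Nup88 in the first table and in Ipo7, Xpo5 and Nup88 in the second.

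Nup88, the partner of Nup214 on the cytoplasmic face, was the gene called with both mutant groups. The event chooses between 3′ splice sites 15 bases apart at chr11:70835671-70835811 (GRCm39, minus strand). In GENCODE M21 (GRCm38) the same lengths are exon 12 of transcripts Nup88-201 (141 bases, chr11:70944845-70944985) and Nup88-202 (126 bases), and both keep the reading frame. The longer exon is shown because its first 15 bases, in capitals, are the segment whose use differed.
Nup88-201 exon 12: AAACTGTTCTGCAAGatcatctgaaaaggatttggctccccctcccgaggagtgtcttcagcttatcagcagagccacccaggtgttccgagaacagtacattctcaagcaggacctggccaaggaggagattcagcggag
Inclusion of this segment was 0.251, 0.184, 0.349 and 0.232 in WT Ctr and 0.400, 0.374, 0.433 and 0.293 in P635L Ctr. It was 0.178, 0.199, 0.301 and 0.259 in WT Tnpo3 and 0.446, 0.376, 0.419 and 0.334 in P635L Tnpo3. Mutant libraries were mostly higher under either virus, and 1 library of each mutant group fell within the WT Ctr range. The rMATS FDR was 0.034 for P635L Ctr and 0.00885 for P635L Tnpo3, each against WT Ctr. An exact permutation test over 8 libraries gave p = 0.0571 for both, and 0.2284 after adjustment over the 20 tests of named events. The total level of Nup88 was not called (edgeR adjusted p = 0.559 for P635L Ctr against WT Ctr). Rabep1 overlaps Nup88 on the other strand.

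In Ipo11, which imports ubiquitin-conjugating enzymes, a cassette exon of 215 bases was used less in P635L Ctr. The event lies at chr13:106972720-106972934 (GRCm39, minus strand). An exon of this length is exon 3 of Ipo11-207 in GENCODE M21 (GRCm38, chr13:106836212-106836426), annotated as a target of nonsense-mediated decay. Its coding part is shown because it ends in a stop codon, in capitals, after 55 bases.
Ipo11-207 exon 3, first 58 bases: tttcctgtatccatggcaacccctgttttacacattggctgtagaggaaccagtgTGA
Inclusion was 0.362, 0.245, 0.253 and 0.211 in WT Ctr and 0.133, 0.143, 0.063 and 0.106 in P635L Ctr, with no overlap (rMATS FDR 0.000547, exact permutation p = 0.0286, the smallest that 4 against 4 can give, and 0.2284 after adjustment). In P635L Tnpo3 it was 0.190, 0.197, 0.179 and 0.250, all above P635L Ctr (exact permutation p = 0.0286, adjusted 0.2284) and not called against WT Ctr (FDR 1.0). In WT Tnpo3 it was 0.110, 0.136, 0.219 and 0.208 (FDR 0.182). A mean of 42.0 junction reads per library in WT Ctr and 107.5 in P635L Ctr stood behind these values. The total level of Ipo11 differed by 0.03 on the log2 scale (SE 0.106, edgeR adjusted p = 0.891).

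**Figure D5:**
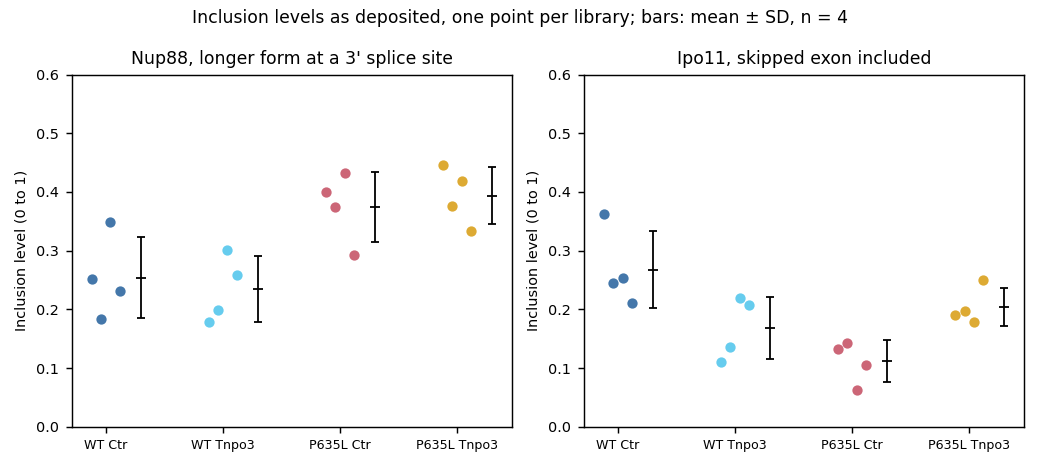
Inclusion level (y axis, 0 to 1 scale, drawn to 0.6) of the Nup88 segment and the Ipo11 exon in each library by group, with the mean and SD of 4 libraries. Nup88 is higher in both mutant groups (means 0.375 and 0.394 against 0.254 in WT Ctr), and Ipo11 is lowest in P635L Ctr (mean 0.111).

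The other called events each had at least 1 library of the mutant group within the WT Ctr range. A skipped exon of Xpo6 (chr7:125702795-125702887) had inclusion of 1.0, 1.0, 0.905 and 1.0 in WT Ctr and 0.717, 1.0, 0.684 and 0.655 in P635L Ctr (FDR 0.00256, exact permutation p = 0.1429). It was 0.905 to 0.958 in P635L Tnpo3. A retained intron of Ipo7 had means of 0.068 ± 0.09 in WT Ctr and 0.253 ± 0.216 in P635L Tnpo3 (SD, n = 4, FDR 0.000445), on about 11 junction reads per library. The 4 values in P635L Tnpo3 ran from 0.0 to 0.474. A 3′ splice site of Xpo5, the exporter of microRNA precursors, was at most 0.024 in WT Ctr and was 0.089, 0.257, 0.0 and 0.086 in P635L Tnpo3 (FDR 4.42e-05, exact permutation p = 0.1429).

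The authors' deposited table of DESeq2 results lists 5 members at an adjusted p under 0.05 for P635L Ctr against WT Ctr. They are Xpot higher and Ipo13, Kpna1, Kpna2 and Kpna6 lower. Kpna1 and Kpna2, with deposited adjusted p of 0.00492 and 0.00292, are the members it adds to the edgeR calls. The authors' deposited table lists 2 members, Kpna1 and Kpna2, both lower, for P635L Tnpo3 against WT Ctr, and 0 for WT Tnpo3 against WT Ctr. The share of all genes under this threshold in the deposited results was not counted, so these member counts have no background beside them.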

How the data were processed

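Raw counts per gene were deposited by the authors and made with featureCounts 2.0.6 after alignment with STAR 2.7.9a to GRCm39, per the submitters' processing notes. Libraries were stranded and poly(A)-selected per the labels' protocols. Whether counting used strand is not given in the sources used here, and 22 of 48 members overlap an antisense gene. The authors' deposited tables also hold DESeq2's log2 fold change, p-value and adjusted value for each gene, and inclusion levels (a fraction from 0 to 1), junction counts, p-values and FDR from rMATS per the file headers, which do not state the order of libraries within a group. No column of per-sample values was left unused (0).

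The test was edgeR 4.0.16 under R 4.3.3 (robust quasi-likelihood fit, TMM, filterByExpr), with 1 mean per group over 16 libraries and 12 residual degrees of freedom, two-sided, with Benjamini-Hochberg adjustment over 18662 genes and a threshold of 0.05. CPM and FPKM were computed from these counts with TMM factors, and FPKM also with the gene lengths listed beside the counts. DESeq2 1.42.0 was an alternative, with other scalings, no filter, libraries left out, a replicate block and fits of the compared groups alone. The script was tested on simulated data. Each library is 1 mouse. Symbols came from the splicing tables and a gene-name table.

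Members and lists were chosen with earlier results of these data known. Named genes were the members called in a comparison, or, with none called, the 2 highest and 2 lowest fold changes of the 6 smallest p-values, the most abundant member of each role, and Kpnb1, Kpna2, Xpo1, Cse1l, Ran and Ranbp2. Named splicing events were those called in any table. Others were named after their values were seen, among them Ipo7, Nup107, Nup35, Xpo4 and Tnpo1.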

Additional observations from a re-analysis of the deposited data

Results flagged for a closer look

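Groups of 4 were searched for a library set apart from the other 3, over 112 groups of the named genes and events, and 7 were found. Chance alone marks about 1 in 20 such groups. Nup62 in P635L Ctr 4 stood at 31.0 CPM, beside 25.5 to 26.3 CPM in the other 3. Nup93 in P635L Tnpo3 3 stood at 17.7 CPM, beside 15.6 to 15.9 CPM. Rangap1 in WT Tnpo3 2 stood at 37.2 CPM, beside 29.0 to 30.2 CPM. The inclusion of the Xpo6 exon was 0.905 in 1 library of WT Ctr, beside 1.0 in the others, and 0.958 in 1 library of P635L Tnpo3, beside 0.905 to 0.914. The Xpo5 splice site was at 0.024 in 1 library of WT Ctr and at 0.019 in 1 of P635L Ctr, beside 0.0 in the other libraries of each. Each of these Xpo5 values rests on 1 inclusion read.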

How the results depend on the processing

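No called member changed sign under any alternative run. Counts of members called depended on the fit, and so did the share of all genes called. For P635L Tnpo3 against P635L Ctr that share was 3.88% over 16 libraries and 15.9% over the 8 mutant libraries alone. For the other alternatives the share of all genes is not given, so those member counts have no background beside them. For P635L Ctr against WT Ctr (3 in the reported fit), DESeq2 gave 5, a fit of these groups alone gave 5, and a fit without the 3 libraries rich in ENSMUSG00000119584 gave 1. For P635L Tnpo3 against WT Tnpo3 (1), the same settings gave 3, 0 and 5, and leaving out the 3 libraries with high Xist gave 2. For P635L Tnpo3 against P635L Ctr (0) they gave 2, 7 and 2, and 1 without the high-Xist libraries. DESeq2 gave 1 for P635L Tnpo3 against WT Ctr and 1 for the interaction, which was Xpot. Without the rich libraries the interaction gave 1 as well, but a different member, Kpna4.

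Leaving out 1 library at a time gave 1 to 3 calls for P635L Ctr against WT Ctr, 0 to 4 for P635L Tnpo3 against WT Tnpo3, 0 to 1 for P635L Tnpo3 against WT Ctr and 0 to 1 for the interaction. The member medians then ran from -0.06 to 0.01, -0.16 to -0.06, -0.13 to -0.09 and -0.11 to -0.02 in these comparisons, and from -0.1 to -0.06 for P635L Tnpo3 against P635L Ctr. Without the rich libraries the member medians were 0.01 for P635L Ctr against WT Ctr, -0.16 for P635L Tnpo3 against WT Tnpo3, -0.05 for P635L Tnpo3 against WT Ctr and -0.19 for the interaction. Medians over all genes were then 0.02, 0.02, 0.01 and 0.0 in the same order. With upper-quartile factors the member medians were -0.06, -0.04, -0.09 and -0.05 for P635L Tnpo3 against WT Tnpo3, P635L Ctr and WT Ctr and for the interaction. Medians over all genes were then 0.02, 0.04, 0.0 and 0.05. With no filter the member medians were -0.1 for P635L Tnpo3 against WT Ctr and -0.1 for the interaction, without high-Xist libraries -0.08 and -0.12, and with only the groups compared -0.1 for the former. Over all genes these medians were 0.0 and 0.06, 0.0 and 0.02, and -0.01. The causes of these shifts were not tested.

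At an inclusion difference of at least 0.2, P635L Ctr had 1 called member event and P635L Tnpo3 had 0, each against WT Ctr. No share of all splicing events is given at this stricter difference. Neither count can therefore be set against a background, and whether the drop is particular to members was not tested. Replicate numbers are shared between groups in the labels. Of 6 pairs of libraries for each number, 1, 2, 2 and 1 for numbers 1 to 4 had a correlation of deviations over 0.1, so the numbers were not taken to pair the samples. The highest correlation was 0.552, between WT Ctr 4 and WT Tnpo3 4, which are both rich in ENSMUSG00000119584 and high in Xist; the next, for number 3, was 0.276. Of 16 libraries, 7 correlated best with one of their own number. How many would do so with unpaired numbers was not worked out, so this count does not decide on pairing. A replicate block gave 3 calls for P635L Ctr against WT Ctr and 0 for P635L Tnpo3 against WT Tnpo3, and changed no other count.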
